A study of Mus musculus with 12 samples.

Results

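The treatment by time interaction asked whether the effect of stigmasterol on hippocampal RNA differed between 1 h and 6 h after injection. It was computed for each gene as the log2 fold change between stigmasterol and vehicle at 6 h minus that at 1 h, and it drew on all 12 of the 12 libraries of the study, 3 in each of 4 groups. A positive value means that stigmasterol libraries stood higher against their vehicle libraries at 6 h than at 1 h, and a negative value the reverse. The same quantity is the change from 1 h to 6 h after stigmasterol minus the change from 1 h to 6 h after vehicle.

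All mice were wild-type animals of the strain C57BL/6, and the tissue was the hippocampus, of which mRNA libraries were sequenced. The 4 groups were vehicle at 1 h (replicates 4, 5 and 9), stigmasterol at 1 h (replicates 1, 8 and 11), vehicle at 6 h (replicates 12, 14 and 21) and stigmasterol at 6 h (replicates 13, 22 and 23), with 3 animals per group per the series design. The labels disagree on the compound: the treatment field of every sample, vehicle samples included, names beta-sitosterol at 100 mg/kg given intraperitoneally, whereas the other fields name stigmasterol, and that word is used here. The labels give neither sex, age, clock time of injection nor the composition of the vehicle. Library totals ran from 27613253 to 42043875 counts. Values within a group are listed below in the order of the replicate numbers just given.

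Stigmasterol and beta-sitosterol are plant sterols that resemble cholesterol and are absorbed only poorly from the diet. In the hippocampus, a handling or injection stress is known to induce immediate early genes and glucocorticoid-responsive genes within the first hours, and the molecular clock moves through its cycle over the same hours. A change between an early and a later time can therefore be present in vehicle animals as well.

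No gene passed the threshold for an interaction. Of 18382 tested genes, 0 (0.00%) had an adjusted p under 0.05 in edgeR's quasi-likelihood test with Benjamini-Hochberg adjustment, and the smallest adjusted p was 1.00. At an unadjusted p under 0.05 there were 425 genes (2.31%), of which 118 (0.642%) were positive and 307 (1.67%) negative. The DESeq2 Wald test also called 0 genes, with 356 at an unadjusted p under 0.05, and so did limma-voom, with 498. Each effect entering the interaction was likewise without calls in edgeR: 0 of 18382 (0.00%) at 1 h, with 1383 genes (7.52%) at an unadjusted p under 0.05, and 0 (0.00%) at 6 h, with 754 (4.10%). DESeq2 called 21 genes at 1 h and 4 at 6 h.

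The precision of the interaction, which combines 4 groups, was lower than that of either effect. Over the 15023 genes averaging 1 CPM or more (CPM, counts scaled to the library size), the median standard error (SE) of the interaction was 0.165 on the log2 scale, against 0.117 for the effect at 1 h and 0.117 for that at 6 h. The median half-width of the 95% interval was 0.36 on the log2 scale, a 1.28-fold difference. For 13675 of these genes (91.0%) the whole interval lay within a 2-fold difference in either direction, and for 10037 (66.8%) within a 1.5-fold difference. Below, ± is the SE and the range in parentheses is the 95% interval. Intervals and unadjusted p-values of single genes are not corrected for the number of genes, and every gene named for its interaction had an adjusted p of 1.00.

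The point estimates were asymmetric. Among these 15023 genes, 140 had an interaction of at least 1 in absolute log2 value, 138 of them negative and 2 positive, and the 5th and 95th percentiles were -0.43 and 0.23. An absolute log2 fold change of at least 1 was found for 115 genes at 1 h and for 4 at 6 h. These counts depended on tissue covariates and on single libraries. With the average of the choroid plexus markers as a covariate there were 49 negative and 16 positive interactions of that size, and 44 such effects at 1 h. With the striatum markers these were 125, 2 and 82, and with both lists 37, 15 and 33. With the meningeal fibroblast markers they were 95, 25 and 81. With single libraries left out, the 138 became 83 without vehicle replicate 21, 208 without vehicle replicate 14 and 224 without stigmasterol replicate 22, all of 6 h. In such fits the 2 became at most 16, without stigmasterol replicate 11 at 1 h. The 115 became 67 without vehicle replicate 4 and 176 without vehicle replicate 5 at 1 h, and the 4 became 8 to 60 when any of the 6 libraries of 6 h was left out. Without vehicle replicates 4 and 9 at 1 h there were 72 negative and 14 positive interactions of that size and 75 such effects at 1 h. Without stigmasterol replicates 8 and 11 at 1 h there were 45 and 19, and 26 at 1 h. Across the 15023 genes, the effects at 1 h and 6 h, which share no library, had a Pearson correlation of 0.226 and a Spearman correlation of 0.298, a description across genes that share libraries within each time. Without stigmasterol replicate 22 at 6 h the Pearson value was -0.183, and without stigmasterol replicate 23 at 6 h it was 0.416.

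**Figure D1:**
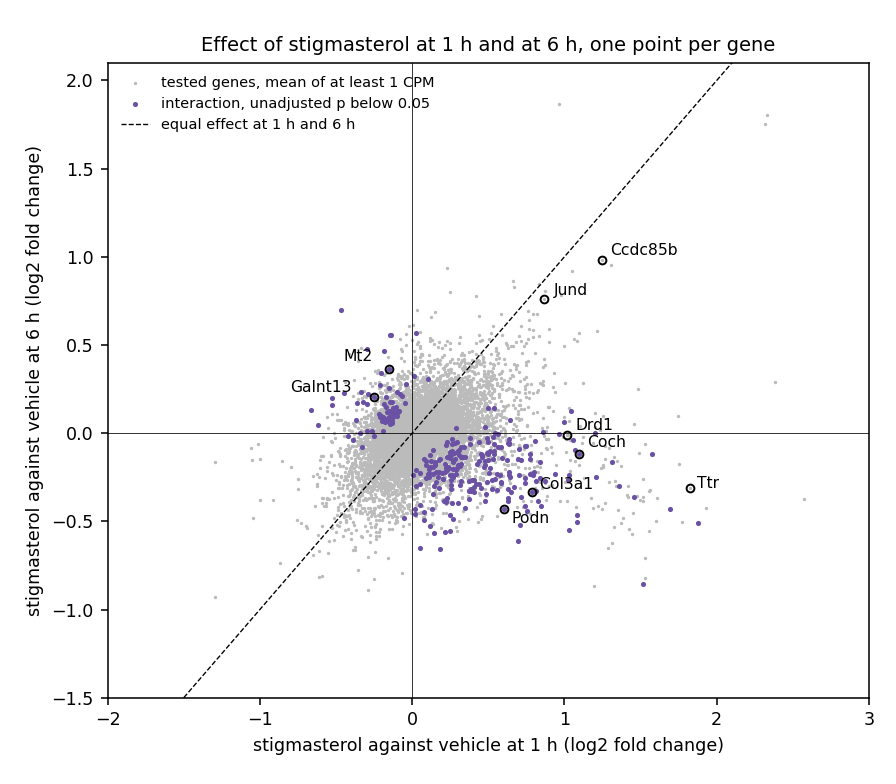
Log2 fold change between stigmasterol and vehicle at 1 h (horizontal) and at 6 h (vertical), one grey point per gene averaging 1 CPM or more; purple points have an unadjusted interaction p under 0.05, the dashed line marks equal effects, circles mark named genes and 2 of the 15023 genes lie outside the axes. Of the 225 purple points with a negative interaction, 224 have a positive effect at 1 h and 215 a negative one at 6 h. Choosing points by a negative interaction by itself favours these signs, so the counts do not show a reversal of the effect. Podn lies at 0.60 and -0.43, while Jund and Ccdc85b lie near the line.

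Several libraries stood apart in RNA of neighbouring tissue or in glucocorticoid-responsive genes. The results below are given with and without these libraries where they carried the value. Averages over marker lists are on the log2 CPM scale. At 1 h after vehicle, replicate 4 averaged 0.80 and replicate 9 1.06 over the choroid plexus markers, whereas 10 libraries lay between 2.62 and 5.33. Striatum markers averaged 4.85 in stigmasterol replicate 8 at 1 h and between 3.11 and 3.60 elsewhere. Meningeal fibroblast markers averaged 4.56 in stigmasterol replicate 11 at 1 h and between 3.20 and 4.25 elsewhere. Glucocorticoid-responsive genes averaged 5.49 in stigmasterol replicate 23 at 6 h and between 4.87 and 5.24 elsewhere. Hippocampal markers were present throughout, with Prox1, a transcription factor of dentate granule cells, at 111 to 186 CPM, and the CA1 marker Wfs1 at 77.0 to 170 CPM. In bulk tissue, fewer cells of a type and less RNA per cell cannot be told apart.

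**Figure D2:**
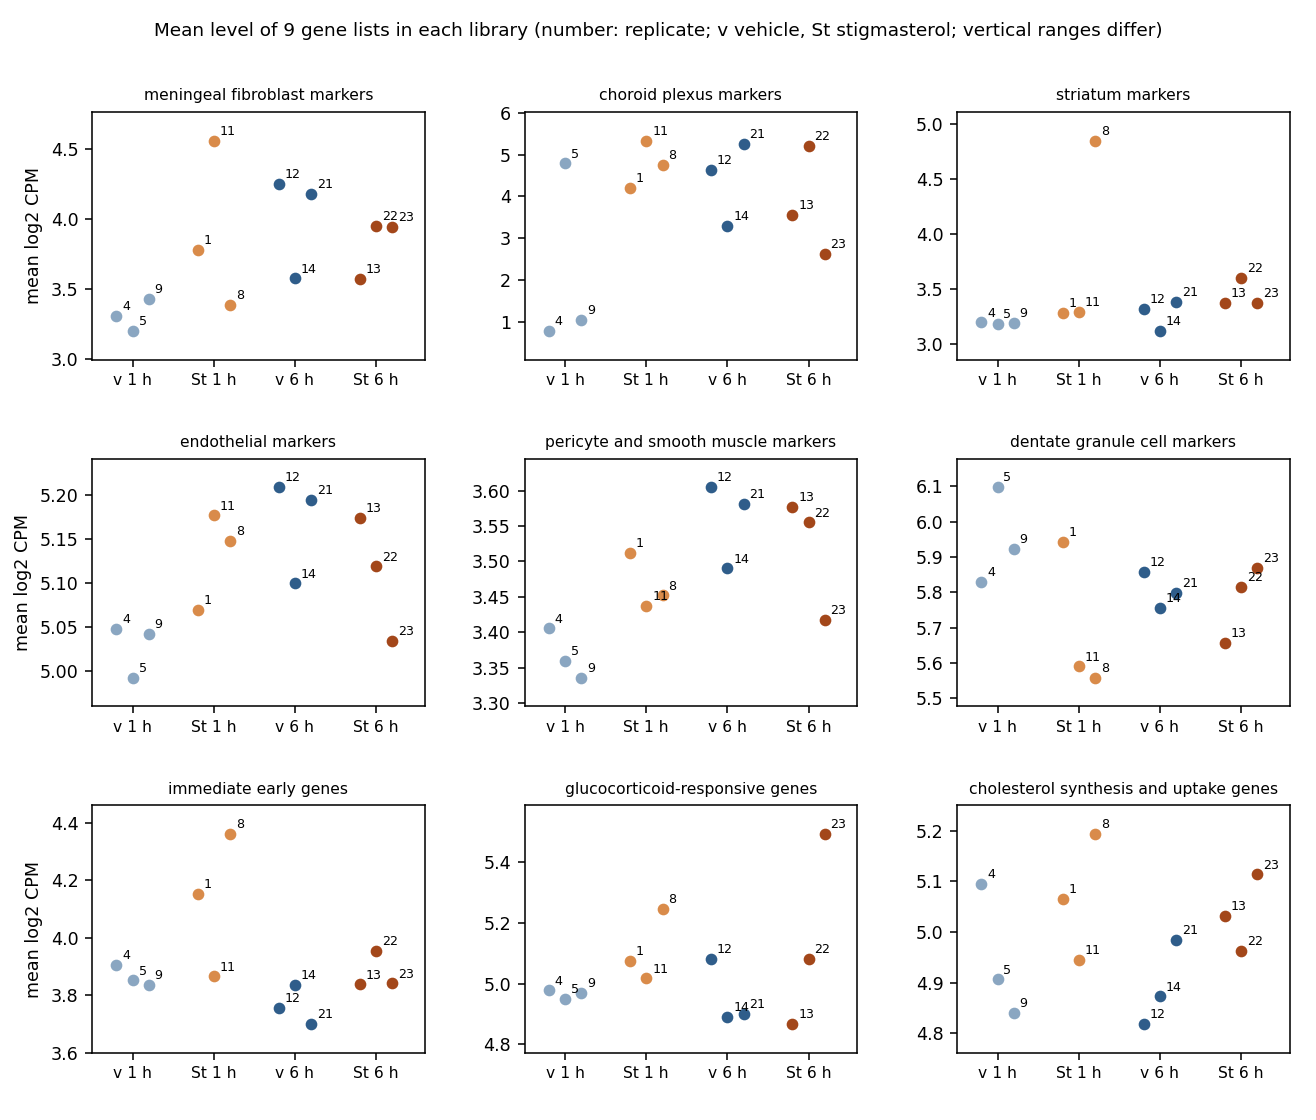
Mean log2 CPM of 9 gene lists (vertical, a different range in each panel) in each of the 12 libraries, grouped by treatment and time (horizontal; v vehicle, St stigmasterol) and labelled with the replicate number. For choroid plexus markers the lowest points are vehicle replicates 4 (0.80) and 9 (1.06) of 1 h, stigmasterol replicate 8 at 1 h lies at 4.85 for striatum markers, and stigmasterol replicate 23 at 6 h lies at 5.49 for glucocorticoid-responsive genes.

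The negative genes of smallest interaction p included several of the extracellular matrix, among them Podn, Col3a1, Col1a1, Coch and Abi3bp, and the endothelial gene Vwf. Their estimates ran from -1.26 ± 0.37 to -0.55 ± 0.12. As defined above, a negative value means that stigmasterol libraries stood higher against vehicle at 1 h than at 6 h. Podn, which encodes podocan, a small leucine-rich proteoglycan of the matrix (chromosome 4, 108014791 to 108096445, minus strand; coordinates here and below are those of GRCm38), had the smallest p of all tested genes. It stood at 4.49, 4.26 and 5.09 CPM after vehicle and 5.71, 7.16 and 8.16 CPM after stigmasterol at 1 h. The levels were 8.20, 9.04 and 8.70 CPM after vehicle and 5.79, 7.26 and 6.23 CPM after stigmasterol at 6 h. Every stigmasterol library was thus above every vehicle library at 1 h and below every one at 6 h. The interaction was -1.03 ± 0.20 on the log2 scale (95% interval -1.46 to -0.60, unadjusted p 0.00019), with 0.60 at 1 h and -0.43 at 6 h. Its adjusted p ranged from 0.0868, with the DESeq2 Wald test, to 1.00 over the settings tried.

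Collagen genes had estimates of like size. Col3a1, which encodes the chain of fibrillar type III collagen (chromosome 1, 45311538 to 45349706, plus strand), stood at 8.19, 4.90 and 6.43 CPM after vehicle and 10.5, 8.99 and 14.3 CPM after stigmasterol at 1 h. Its levels were 12.1, 8.42 and 13.9 CPM after vehicle and 9.04, 8.43 and 9.73 CPM after stigmasterol at 6 h. The groups did not overlap at 1 h and overlapped at 6 h, and the interaction was -1.12 ± 0.31 (-1.78 to -0.46, unadjusted p 0.00287). For Col1a1, a chain of type I collagen, the levels were 18.0, 15.4 and 20.0 CPM after vehicle and 24.6, 24.3 and 40.2 CPM after stigmasterol at 1 h. They were 40.0, 25.0 and 34.6 CPM after vehicle and 25.2, 32.2 and 26.2 CPM after stigmasterol at 6 h. Replicate 11 at 1 h, the library highest in meningeal fibroblast markers, was also the highest Col1a1 library, and the interaction was -0.99 ± 0.29 (-1.62 to -0.37), or -0.72 without that library and -1.16 without vehicle replicate 14 at 6 h. Col1a2, the other chain of type I collagen, had an interaction of -1.01 ± 0.32, with 0.78 at 1 h and -0.23 at 6 h. Col11a1, a chain of type XI collagen, was one of the genes whose groups were separate in opposite directions at both times, at -0.42 ± 0.14.

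The 250 bases before the RefSeq start (GRCm38.p6) of Col1a2 and Col3a1 are shown because these collagen genes had like estimates and because the CCAAT box, bound by the factor NF-Y, is a known element of type I collagen promoters. CCAAT was searched on both strands (ATTGG on the other), matches are in capitals, and 35.1% of 20557 such windows hold at least 1. The Col1a2 window is chr6:4505368-4505617 and that of Col3a1 is chr1:45311288-45311537, both on the plus strand, and the start used for Col1a2 lies 804 bases from the start of the GENCODE gene.
Col1a2: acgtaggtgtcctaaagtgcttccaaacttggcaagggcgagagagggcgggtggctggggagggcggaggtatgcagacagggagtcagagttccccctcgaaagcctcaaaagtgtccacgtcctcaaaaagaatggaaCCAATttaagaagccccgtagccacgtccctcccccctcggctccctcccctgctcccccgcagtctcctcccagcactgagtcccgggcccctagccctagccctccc
Col3a1: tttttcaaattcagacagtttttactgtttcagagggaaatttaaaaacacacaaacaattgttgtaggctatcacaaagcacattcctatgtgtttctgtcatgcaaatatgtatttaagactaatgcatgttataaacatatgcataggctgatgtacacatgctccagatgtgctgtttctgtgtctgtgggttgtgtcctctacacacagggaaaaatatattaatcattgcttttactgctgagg
The Col1a2 window held 1 match, whose outer base lies 109 bases before the start, and the Col3a1 window held 0.

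Other secreted proteins were among the 12 negative genes of smallest p. Coch encodes cochlin, a matrix protein known from the inner ear, and is also on the list of CA2 and CA3 pyramidal cell markers. Its levels were 3.36, 4.37 and 4.33 CPM after vehicle and 6.85, 10.5 and 8.50 CPM after stigmasterol at 1 h. At the later time they were 6.51, 4.04 and 8.19 CPM after vehicle and 4.61, 6.32 and 6.26 CPM after stigmasterol at 6 h. The 3 stigmasterol libraries at 1 h were above all vehicle libraries of that time, the groups overlapped at 6 h, and the interaction was -1.21 ± 0.33 (-1.93 to -0.49). Abi3bp, another matrix protein, had an interaction of -1.26 ± 0.37 at a mean of 1.81 CPM. Bmp4, a ligand of the bone morphogenetic protein pathway and also a marker of oligodendrocyte precursors, stood at 2.55, 3.06 and 2.74 CPM after vehicle and 3.53, 4.71 and 4.78 CPM after stigmasterol at 1 h. Its levels were 4.63, 3.50 and 5.51 CPM after vehicle and 3.59, 4.12 and 3.83 CPM after stigmasterol at 6 h. Vehicle libraries at 1 h were the lowest group for Bmp4, and its interaction was -0.88 ± 0.25 (-1.42 to -0.34). Rbp4, the carrier of retinol in blood, had an interaction of -0.84 ± 0.24.

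As a group, all 19 tested meningeal fibroblast markers, genes of the cells that form the brain's connective tissue covering, had a negative interaction, and 10 of them had an unadjusted p under 0.05, against 1.67% of all tested genes. None passed adjustment, and the list includes the collagen genes above. Their median interaction was -0.89, from a median effect of 0.63 at 1 h and -0.23 at 6 h, against 0.00 for all tested genes in each of the 3 measures. For 17 of the 19 the effect was positive at 1 h and negative at 6 h. The library averages of the list ranged from 3.20 to 3.43 log2 CPM after vehicle and from 3.39 to 4.56 after stigmasterol at 1 h, and from 3.58 to 4.25 after vehicle and from 3.57 to 3.95 after stigmasterol at 6 h, and no member had a count of 0 in any library. Stigmasterol replicate 8 at 1 h thus lay within the vehicle range of its time. Without stigmasterol replicate 11 at 1 h the median was -0.45, and without stigmasterol replicate 8 at 1 h it was -1.13. The part of meningeal tissue in these values was not tested.

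Endothelial genes were next. Vwf encodes von Willebrand factor, the clotting protein stored and released by endothelial cells (chromosome 6, 125546774 to 125686679, plus strand). Its levels were 32.7, 30.6 and 34.0 CPM after vehicle and 36.3, 36.5 and 43.3 CPM after stigmasterol at 1 h. Its levels at the later time were 58.0, 50.3 and 59.0 CPM after vehicle and 44.3, 47.0 and 45.2 CPM after stigmasterol at 6 h. The groups were separate at both times and in opposite directions. The interaction was -0.55 ± 0.12 (-0.82 to -0.28, unadjusted p 0.00073), between -0.61 and -0.46 when each library in turn was left out, and -0.34 with the meningeal average as a covariate.

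Emcn, which encodes endomucin, a surface glycoprotein of venous and capillary endothelium, differed in its course from Vwf. It stood at 5.79, 6.09 and 6.09 CPM after vehicle and 6.30, 6.73 and 6.83 CPM after stigmasterol at 1 h. It stood at 5.76, 5.55 and 6.09 CPM after vehicle and 4.89, 4.93 and 4.32 CPM after stigmasterol at 6 h. Vehicle libraries of the 2 times overlapped, stigmasterol libraries were highest at 1 h and lowest at 6 h, and the interaction was -0.44 ± 0.15 (-0.76 to -0.12). Cdh5, the cadherin of endothelial junctions, had an interaction of -0.42 ± 0.15. Over the 20 endothelial markers the interactions were 4 positive and 16 negative, and the median was -0.14. At an unadjusted p under 0.05 there were 4 negative and 0 positive, against 1.67% and 0.642% of all tested genes. For 9 of the 20 the effect was positive at 1 h and negative at 6 h. Over 16 pericyte and smooth muscle markers the interactions were 4 positive and 12 negative, with a median of -0.13. In that list Acta2, smooth muscle actin, had an interaction of -0.39 ± 0.16, Vtn, vitronectin, one of -0.36 ± 0.16, and Anpep, aminopeptidase N, one of -0.59 ± 0.27. All 3, of the 16 tested, were negative at an unadjusted p under 0.05, against 1.67% of all tested genes.

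The remaining negative genes of smallest p were on none of the lists. Tcirg1, a subunit of the proton pump that acidifies vesicles, stood at 21.9, 20.2 and 20.6 CPM after vehicle and 25.8, 27.5 and 24.9 CPM after stigmasterol at 1 h. Its levels were 26.1, 23.5 and 25.5 CPM after vehicle and 22.5, 25.2 and 20.7 CPM after stigmasterol at 6 h. The groups were separate at 1 h and overlapped at 6 h, and the interaction was -0.45 ± 0.13 (-0.72 to -0.18). Dazap1, an RNA-binding protein of the nucleus, had an interaction of -0.34 ± 0.10, and Shc1, an adaptor of growth factor receptors, one of -0.50 ± 0.16. Amigo3, a membrane protein with leucine-rich repeats, had -0.46 ± 0.14 and groups that were separate at both times, in opposite directions. The same held for Myo19, a myosin of mitochondria, at -0.36 ± 0.12, and for A4galt, which synthesizes the glycolipid Gb3, at -0.77 ± 0.27.

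Separation of the groups at both times was rare and went both ways. Stigmasterol and vehicle libraries did not overlap for 2902 genes (15.8%) at 1 h and for 1511 genes (8.22%) at 6 h. They were separate at both times in opposite directions for 34 genes (0.185%), 18 higher then lower (0.0979%) and 16 lower then higher (0.0870%). They were separate at both times in the same direction for 296 genes (1.61%), 144 higher at both (0.783%) and 152 lower at both (0.827%). A negative interaction by itself favours a lowest group mean in vehicle at 1 h or stigmasterol at 6 h, and a highest in the other groups. A positive one favours the reverse, so the following counts partly restate the choice of genes. Among the groups so favoured, the vehicle groups held the extreme means more often than the stigmasterol groups. Of the 307 negative genes at an unadjusted p under 0.05, 250 had their lowest group mean in vehicle at 1 h and 56 in stigmasterol at 6 h, while the highest mean was in vehicle at 6 h for 185 and in stigmasterol at 1 h for 119. Of the 118 positive genes, 79 had their highest mean in vehicle at 1 h and 70 their lowest in vehicle at 6 h.

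**Figure D3:**
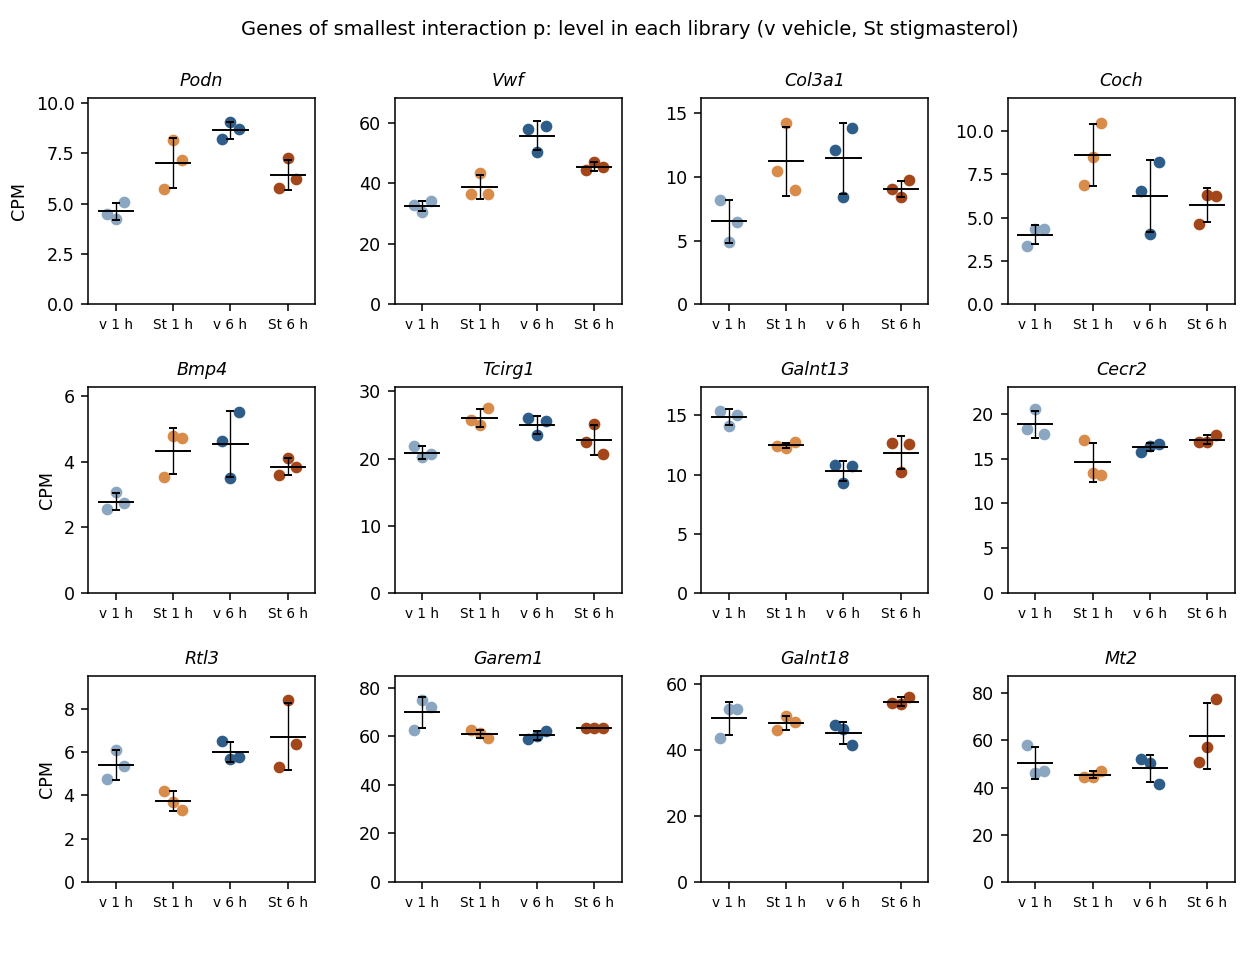
Level in CPM (vertical, from 0) of 12 genes of small interaction p in each library, by group (horizontal; v vehicle, St stigmasterol); the line is the mean and the bar 1 SD of 3 libraries. With the panels read row by row, the first 6 genes have a negative interaction and the last 6 a positive one. Vwf, of the first 6, has group means of 32.4, 38.7, 55.8 and 45.5 CPM from left to right. Galnt13, of the last 6, has 14.8, 12.5, 10.3 and 11.8 CPM.

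The 12 positive genes of smallest p had estimates from 0.22 ± 0.08 to 0.78 ± 0.29. Galnt13, an enzyme that starts O-glycosylation of proteins in neurons (chromosome 2, 54436317 to 55118309, plus strand), stood at 15.4, 14.1 and 15.1 CPM after vehicle and 12.4, 12.7 and 12.3 CPM after stigmasterol at 1 h. Its levels were 10.8, 9.33 and 10.7 CPM after vehicle and 12.7, 10.2 and 12.6 CPM after stigmasterol at 6 h. Every stigmasterol library was below every vehicle library at 1 h, and the groups overlapped at 6 h. The interaction was 0.45 ± 0.15 (0.13 to 0.77, unadjusted p 0.00888). Galnt18, of the same enzyme family, was separate at 6 h, where stigmasterol libraries stood at 54.1, 53.8 and 56.1 CPM and vehicle libraries at 47.4, 46.4 and 41.4 CPM, and its interaction was 0.31 ± 0.12.

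Cecr2, a bromodomain protein of a chromatin remodelling complex, was separate in opposite directions at both times. Its levels were 18.3, 20.5 and 17.7 CPM after vehicle and 17.1, 13.2 and 13.4 CPM after stigmasterol at 1 h. At the later time they were 15.8, 16.4 and 16.6 CPM after vehicle and 16.9, 16.8 and 17.7 CPM after stigmasterol at 6 h. The gap at 6 h was much narrower than that at 1 h, and the interaction was 0.44 ± 0.15 (0.12 to 0.76). Rtl3, a gene derived from a retrotransposon, stood at 4.74, 6.09 and 5.33 CPM after vehicle and 4.22, 3.32 and 3.69 CPM after stigmasterol at 1 h. Its levels were 6.51, 5.69 and 5.77 CPM after vehicle and 5.33, 8.40 and 6.38 CPM after stigmasterol at 6 h. The groups were separate at 1 h and overlapped at 6 h, and the interaction was 0.68 ± 0.24 (0.17 to 1.20). Garem1, an adaptor in growth factor signalling, was separate at both times in opposite directions, at 0.27 ± 0.10, but by narrow gaps. At 1 h its highest stigmasterol library stood at 62.58 CPM and its lowest vehicle library at 62.78 CPM. At 6 h its lowest stigmasterol library stood at 63.26 CPM and its highest vehicle library at 62.15 CPM.

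Pappa, a protease that cleaves binding proteins of insulin-like growth factors, had 0.78 ± 0.29 at a mean of 1.82 CPM. Sybu, syntabulin, which links cargo to kinesin in axons, had 0.23 ± 0.09, and Fbxo25, a subunit of a ubiquitin ligase, had 0.22 ± 0.08. Slc39a6, a zinc importer of the plasma membrane, had 0.32 ± 0.12, and Lyplal1, a lysophospholipase-like enzyme, 0.49 ± 0.19. Pcdha9 had 0.54 ± 0.21, with the reservation that the clustered protocadherin alpha genes share their last exons, so that reads could be split between them.

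Mt2 was the last of the 12. It encodes metallothionein 2, which binds zinc and copper and responds to metals and glucocorticoids. It stood at 58.1, 46.0 and 47.0 CPM after vehicle and 44.5, 47.2 and 44.6 CPM after stigmasterol at 1 h. Its levels were 52.2, 50.5 and 41.6 CPM after vehicle and 50.9, 57.0 and 77.6 CPM after stigmasterol at 6 h. The highest library was stigmasterol replicate 23 at 6 h, the one highest in glucocorticoid-responsive genes, and the groups overlapped at both times. The interaction was 0.51 ± 0.20 (0.08 to 0.95), or 0.32 without that library, and between 0.32 and 0.64 with each library in turn left out. The neighbouring gene Mt1, chosen after its values were seen, stood at 308, 284 and 215 CPM after vehicle and 301, 321 and 346 CPM after stigmasterol at 6 h, and its interaction was 0.22 ± 0.17.

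The windows of 250 bases before the RefSeq starts (GRCm38.p6) of Mt1 and Mt2 are shown because both genes are known targets of the zinc-sensing factor MTF-1, whose metal response element has the core TGCNCNC. That core was searched on both strands (GNGNGCA on the other), matches are in capitals, and 45.3% of 20557 such windows hold at least 1. The windows are chr8:94178839-94179088 for Mt1 and chr8:94172368-94172617 for Mt2, both on the plus strand.
Mt1: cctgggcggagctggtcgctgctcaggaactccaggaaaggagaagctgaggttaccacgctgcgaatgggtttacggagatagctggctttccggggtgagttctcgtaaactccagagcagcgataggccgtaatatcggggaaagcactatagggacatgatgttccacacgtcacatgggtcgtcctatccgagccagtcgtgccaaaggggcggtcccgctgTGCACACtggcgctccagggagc
Mt2: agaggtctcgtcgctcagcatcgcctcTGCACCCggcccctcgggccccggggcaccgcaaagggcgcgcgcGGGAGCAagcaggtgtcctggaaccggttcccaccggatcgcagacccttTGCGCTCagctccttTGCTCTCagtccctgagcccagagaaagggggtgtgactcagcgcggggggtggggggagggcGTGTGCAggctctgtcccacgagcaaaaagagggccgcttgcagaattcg
The Mt1 window held 1 match and the Mt2 window 5, the nearest of them 23 and 50 bases before the start. The starts used lie 7 bases (Mt1) and 46 bases (Mt2) from the starts of the GENCODE genes. Sequence outside the windows was not searched, so these are not counts of all such elements of either gene.

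The lists of dentate granule cell, GABA signalling and glutamate receptor genes had small positive medians. Of 13 dentate granule cell markers, 12 had a positive interaction and 1 a negative one, with a median of 0.22 from -0.32 at 1 h and -0.01 at 6 h. At an unadjusted p under 0.05 there was 1 of the 13, Prox1, against 2.31% of all tested genes. Prox1 stood at 152, 186 and 167 CPM after vehicle and 157, 111 and 129.7 CPM after stigmasterol at 1 h. Its levels were 138, 144 and 146 CPM after vehicle and 134, 137 and 157 CPM after stigmasterol at 6 h. Stigmasterol replicates 8 and 11 at 1 h were the lowest libraries of that time, and the interaction was 0.35 ± 0.16 (0.00 to 0.69). Calb1, calbindin, a calcium buffer of granule cells, had 0.41 ± 0.19, and Tdo2, tryptophan dioxygenase, 0.47 ± 0.28. The average of the list was 5.56 and 5.59 log2 CPM in these 2 libraries, below the other 10, and they were also the libraries highest in striatum and in meningeal fibroblast markers respectively. Without both, which leaves 1 stigmasterol library at 1 h, the median interaction of the list was 0.05.

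Of 24 genes of GABA signalling, 21 had a positive interaction and 3 a negative one, with a median of 0.13. Gad1 and Gad2, the enzymes that make GABA, had interactions of 0.21 ± 0.11 and 0.22 ± 0.11, and the chloride importer Slc12a2, which is also abundant in choroid plexus, had -0.57 ± 0.26. Of 29 glutamate receptor genes, 20 were positive and 9 negative, with a median of 0.07, and the metabotropic receptor gene Grm5 had 0.28 ± 0.13. Bdnf, the neurotrophin, had 0.21 ± 0.13. Markers of CA1 pyramidal cells, of CA2 and CA3 pyramidal cells and of interneurons had medians of 0.05, 0.06 and 0.08. Markers of astrocytes, microglia and oligodendrocyte precursors had medians of 0.05, 0.00 and 0.05.

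**Figure D4:**
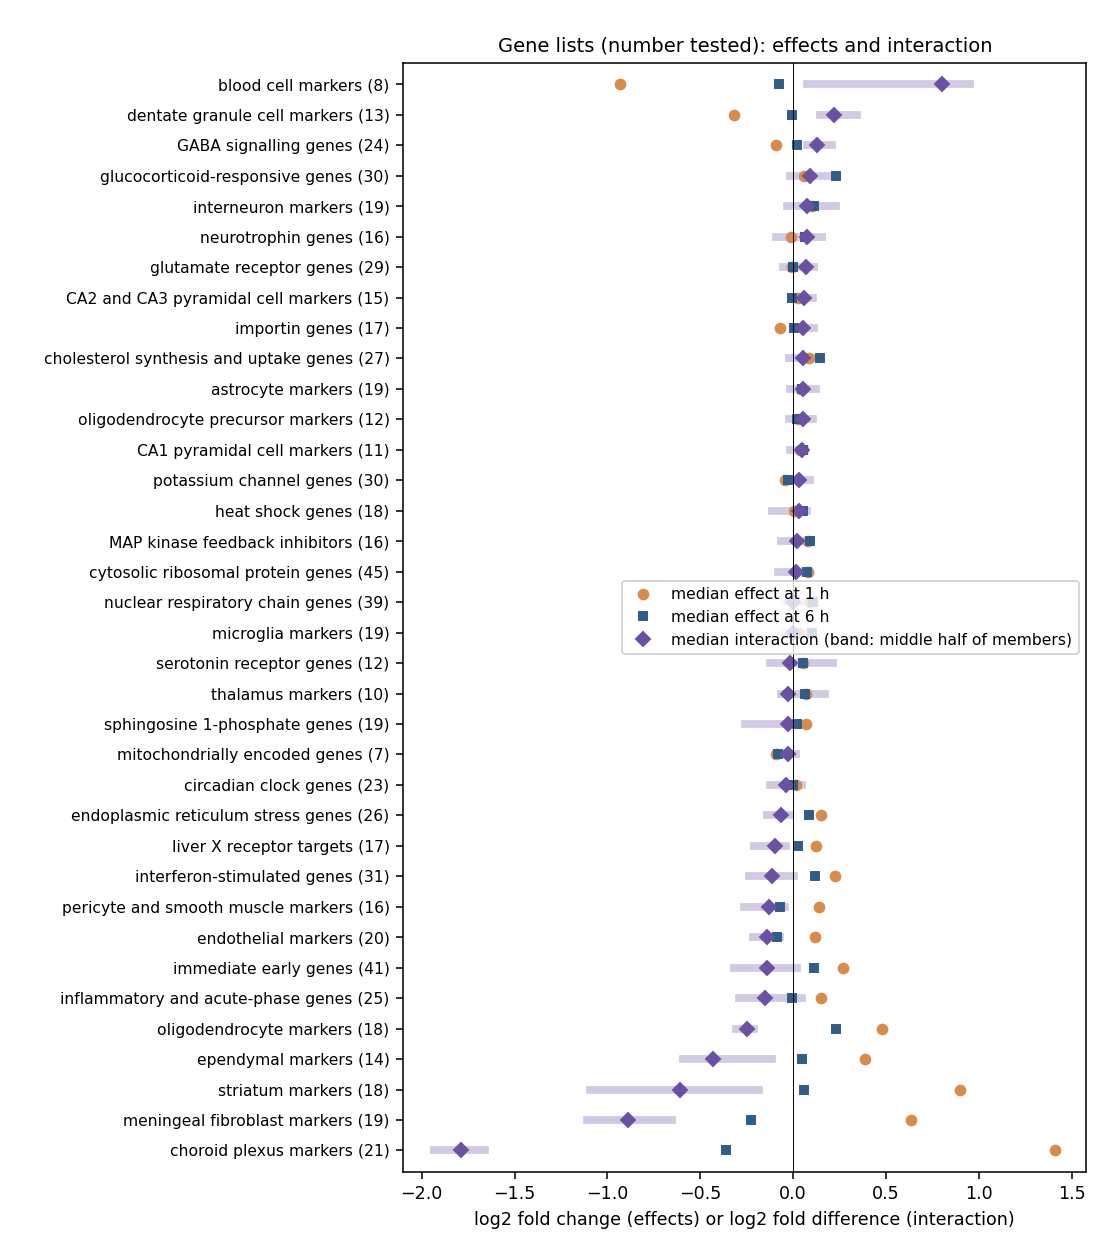
Median over each gene list (vertical; number of tested genes in parentheses) of the log2 fold change between stigmasterol and vehicle at 1 h (circles) and 6 h (squares) and of the interaction (diamonds; bands span the quartiles of the members). Interaction medians run from -1.79 for choroid plexus markers to 0.80 for blood cell markers. The 5 lists with the lowest interaction medians have a positive median effect at 1 h, a sign that choosing lists by a low interaction by itself favours.

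Like that of the meningeal list, the median of the choroid plexus list changed when 1 or 2 libraries were left out. All 21 choroid plexus markers were negative, with a median of -1.79. For Ttr, transthyretin, the main secreted protein of the plexus epithelium, the levels were 31.0, 2553 and 40.3 CPM after vehicle and 1752, 3085 and 4438 CPM after stigmasterol at 1 h. They were 2321, 702 and 3630.3 CPM after vehicle and 903, 4099 and 356 CPM after stigmasterol at 6 h. The libraries of each group spanned a wide range, and the interaction was -2.13 ± 1.81 (-6.04 to 1.77). Slc13a4, a sulfate transporter, had -1.66 ± 0.76. It was the 1 member of the 21 with an unadjusted p under 0.05, against 2.31% of all tested genes. Leaving out vehicle replicates 4 and 9 at 1 h together gave the list a median of -0.39, and leaving out vehicle replicate 5 at 1 h gave -4.56.

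Of 18 striatum markers, 17 were negative, with a median of -0.61, which became 0.10 without stigmasterol replicate 8 at 1 h. Drd1, a dopamine receptor gene of striatal neurons, stood at 2.65, 3.13 and 3.08 CPM after vehicle and 3.67, 11.4 and 2.86 CPM after stigmasterol at 1 h. Replicate 8 was the highest of these libraries, and the interaction of -1.03 ± 0.57 became -0.16 without it and -1.37 without replicate 11. All 18 oligodendrocyte markers were negative, with a median of -0.25 and of 0.00 without the same library, and 13 of 14 ependymal markers were negative, with a median of -0.43. Of 8 blood cell markers, 6 were positive, with a median of 0.80, or -0.15 without vehicle replicate 5 at 1 h, whose average of 2.94 log2 CPM was the highest of all libraries. Hbb-bs, an adult beta globin gene whose close relatives may share its reads, had 0.97 ± 0.68, or -0.13 without that library.

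Immediate early genes, which neurons switch on within minutes of activity, had a median effect of 0.27 at 1 h and 0.12 at 6 h. Of 41, 11 had a positive interaction and 30 a negative one, against 49.0% positive over all tested genes, and the median was -0.14. At an unadjusted p under 0.05 there were 0 of them, against 2.31% of all tested genes. Egr1, a zinc finger transcription factor, stood at 90.3, 79.5 and 82.8 CPM after vehicle and 128, 194 and 72.1 CPM after stigmasterol at 1 h. Its levels were 58.6, 57.0 and 58.8 CPM after vehicle and 63.7, 61.8 and 58.1 CPM after stigmasterol at 6 h. The stigmasterol libraries at 1 h lay both above and below the vehicle libraries, while the 6 h groups lay close together. The interaction was -0.57 ± 0.33 (-1.29 to 0.15). It was -0.18 without stigmasterol replicate 8 and -0.87 without stigmasterol replicate 11 of 1 h, the highest and lowest of that group, -0.53 without both, and -1.10 with the meningeal average as a covariate. Without replicate 11, without both and with that covariate, Egr1 had the smallest interaction p of all genes tested, at an adjusted p of 0.942 to 1.00. Egr4, of the same family, had -0.53 ± 0.34, with 1.06 at 1 h and 0.53 at 6 h, and Ier3, an early response gene, -0.56 ± 0.27. The median of the list was -0.02 without replicate 8 and -0.27 without replicate 11.

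Lists of hormone, sterol and transport genes had medians within 0.1 of 0. Of 30 glucocorticoid-responsive genes, 21 were positive and 9 negative, and their median of 0.09 became -0.09 when stigmasterol replicate 23 at 6 h was left out. Fkbp5, a chaperone of the glucocorticoid receptor induced by that receptor, stood at 74.4, 82.0 and 157 CPM after stigmasterol at 6 h and at 93.9, 81.5 and 72.4 CPM after vehicle. Its interaction was 0.34 ± 0.32, or -0.08 without replicate 23 and 0.53 without replicate 13. Of 27 genes of cholesterol synthesis and uptake, 18 were positive and 9 negative, with a median of 0.05. Of 17 targets of the liver X receptor, the nuclear receptor for oxysterols, 3 were positive and 14 negative, with a median of -0.10, and the cholesterol exporter gene Abca1 had -0.17 ± 0.12.

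Importins carry proteins into the nucleus. Of 17 importin genes, 13 were positive and 4 negative, with a median of 0.06, and Kpna1, the gene of importin alpha 5, stood at 119.6, 124 and 129 CPM after vehicle and 119, 103 and 121 CPM after stigmasterol at 1 h. Its levels were 99.6, 96.6 and 110.4 CPM after vehicle and 107, 87.8 and 116 CPM after stigmasterol at 6 h. The groups overlapped at both times, and the interaction was 0.14 ± 0.14 (-0.17 to 0.44). Sphk1, which makes sphingosine 1-phosphate, stood at 1.81, 1.69 and 2.25 CPM after vehicle and 2.39, 1.92 and 5.53 CPM after stigmasterol at 1 h. The highest of these was replicate 11, and the interaction of -0.96 ± 0.49 became -0.37 without it, -1.23 without replicate 8 and 0.15 with the meningeal average as a covariate. The 19 genes of that pathway had a median of -0.03.

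The interferon, inflammatory and endoplasmic reticulum stress lists had negative medians. Of 31 interferon-stimulated genes, 8 were positive and 23 negative, with a median of -0.11. At 1 h the list averaged 2.82 log2 CPM in stigmasterol replicate 11 and 2.28 and 2.41 in replicates 1 and 8. Vehicle libraries of that time lay between 2.28 and 2.32. At 6 h the average was 2.67 in vehicle replicate 21 and 2.18 and 2.24 in vehicle replicates 12 and 14. Stigmasterol libraries of 6 h lay between 2.48 and 2.50. Ifitm1, an antiviral membrane protein, stood at 1.06, 1.02 and 1.13 CPM after vehicle and 1.80, 1.62 and 2.42 CPM after stigmasterol at 1 h. Its levels were 2.97, 2.19 and 2.65 CPM after vehicle and 1.98, 2.37 and 3.47 CPM after stigmasterol at 6 h. The vehicle libraries at 1 h were below all others, the 6 h groups overlapped, and the interaction was -0.85 ± 0.32 (-1.55 to -0.16). Mx2, another antiviral gene, had -0.60 ± 0.28. The median was -0.15 over 25 inflammatory and acute-phase genes and -0.07 over 26 genes of endoplasmic reticulum stress, where the disulfide isomerase gene Pdia4 had -0.41 ± 0.19. Over 45 ribosomal protein genes the median was 0.01, with -0.40 ± 0.16 for Rps16, and over 39 nuclear respiratory chain genes it was 0.00. A further 7 lists (MAP kinase feedback inhibitors, heat shock, mitochondrially encoded, neurotrophin, serotonin receptor and potassium channel genes and thalamus markers) had medians between -0.03 and 0.07, against 0.00 over all 18382 tested genes, of which 9013 were positive and 9369 negative.

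Interaction values had a Spearman correlation with the GC content of genes of -0.292 across 15004 genes, against 0.465 for the effect at 1 h and 0.206 for that at 6 h. With each library's trend in GC content and length removed, Podn had an interaction of -0.91, Vwf one of -0.44 and Galnt13 one of 0.44.

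Some genes had an effect of the same sign at both times, which the interaction alone does not show. The examples here belong to the set taken from earlier results of these data, and their intervals do not establish equal effects. Jund, a subunit of the transcription factor AP-1, stood at 9.66, 12.6 and 13.8 CPM after vehicle and 19.0, 24.1 and 22.8 CPM after stigmasterol at 1 h. Its levels were 13.6, 12.5 and 14.9 CPM after vehicle and 22.1, 27.7 and 19.8 CPM after stigmasterol at 6 h. Stigmasterol libraries were above all vehicle libraries at both times, with 0.87 at 1 h and 0.76 at 6 h. The interaction was -0.11 ± 0.22, with an interval of -0.57 to 0.36 that spans differences in either direction. Ccdc85b, a coiled-coil protein, went from 1.25 to 0.98, with an interaction of -0.26 ± 0.35 (-1.01 to 0.48). Tpt1, translationally controlled tumour protein, went from 0.67 to 0.39, with -0.28 ± 0.17 (-0.65 to 0.09), and has processed copies in the genome with which it may share reads. None of these effects passed adjustment in edgeR at either time.

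Read the other way, the interaction compares the change from 1 h to 6 h between the treatments. After vehicle, 124 of 18382 genes (0.675%) differed between 6 h and 1 h at an adjusted p under 0.05, 85 higher (0.462%) and 39 lower (0.212%) at 6 h. After stigmasterol 1 gene did (0.00544%). At an unadjusted p under 0.05 there were 3901 genes (21.2%) after vehicle and 1837 (9.99%) after stigmasterol. These counts do not by themselves show that the changes differed, and the interaction called 0 of the 124 genes. Of the 124, 25 had an unadjusted interaction p under 0.05, against 2.31% of all tested genes. The vehicle libraries that chose the 124 genes also enter the interaction, which by itself can raise that number. The vehicle count changed with the setting: it ran from 0 to 582 when single libraries were left out, was 0 with the choroid plexus covariate and 2162 with the GC trend removed, and DESeq2 gave 1154 for vehicle and 97 for stigmasterol.

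Of the 124 genes, 122 had a change of the same sign after stigmasterol, 100 of them at an unadjusted p under 0.05, that is 80.6% against 9.99% of all tested genes. The median change was 0.52 on the absolute log2 scale after vehicle and 0.30 in the vehicle direction after stigmasterol. The vehicle libraries chose these genes, which by itself gives larger values in them than in other libraries. Over the 15023 genes of at least 1 CPM, which were not chosen in this way, the median absolute change was 0.151 after vehicle and 0.108 after stigmasterol, and the changes had a Pearson correlation of 0.466 and a Spearman correlation of 0.596 across genes, with no library in common.

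**Figure D5:**
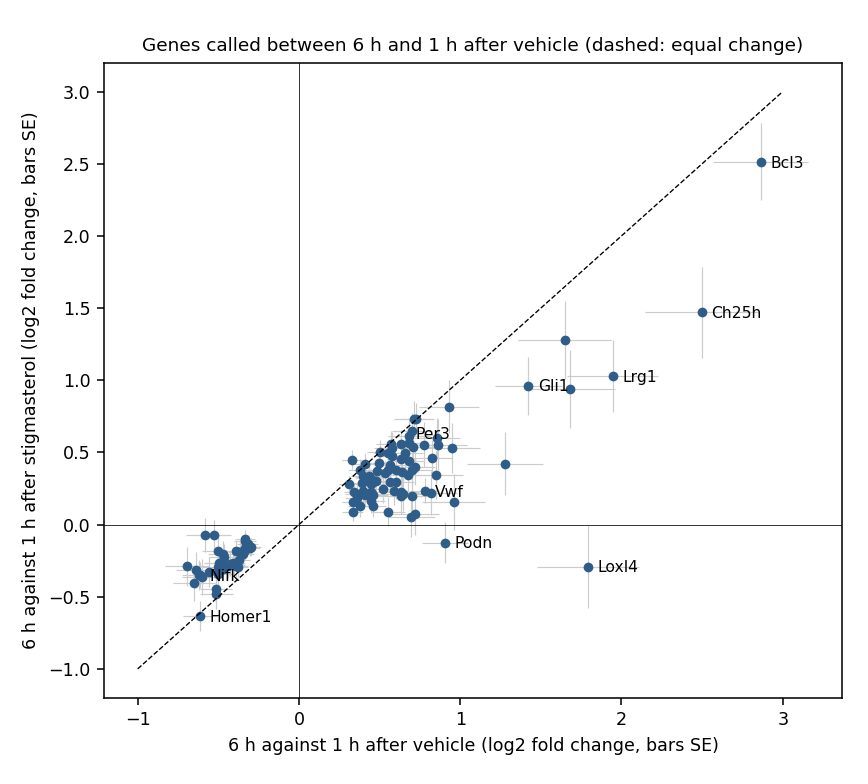
Log2 fold change between 6 h and 1 h after vehicle (horizontal) and after stigmasterol (vertical) for the 124 genes called after vehicle; bars are standard errors and the dashed line marks equal changes. Bcl3 lies near the line at 2.86 and 2.51, Homer1 lies on it at -0.62 and -0.63, and Podn and Loxl4 lie below the horizontal axis at -0.12 and -0.29 after stigmasterol.

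The one gene called after both treatments was Bcl3, a nuclear partner of NF-kB subunits (chromosome 7, 19808462 to 19822770, minus strand). It stood at 0.125, 0.176 and 0.305 CPM after vehicle and 0.213, 0.304 and 0.338 CPM after stigmasterol at 1 h. Its levels were 1.81, 1.31 and 1.38 CPM after vehicle and 1.49, 1.75 and 1.67 CPM after stigmasterol at 6 h. All 6 h libraries were above all 1 h libraries, the change was 2.86 after vehicle and 2.51 after stigmasterol, and the interaction was -0.35 ± 0.42 (-1.26 to 0.56). The clock gene Per3, a repressor of the molecular clock, rose by 0.66 after vehicle, at an adjusted p of 0.0303, and had a change of 0.50 after stigmasterol, at an adjusted p of 0.194, with an interaction of -0.16 ± 0.16. Per1 and Per2, its relatives, had interactions of -0.25 ± 0.20 and -0.34 ± 0.17. For Per2 all stigmasterol libraries were below all vehicle libraries at 6 h, at 62.4, 71.2 and 72.8 against 81.8, 74.8 and 78.4 CPM. Its interaction was -0.50 without stigmasterol replicate 11 and -0.53 without stigmasterol replicates 8 and 11 of 1 h, and with single libraries left out it lay between -0.50 and -0.24. That of Per1 lay between -0.41 and -0.08. The 23 clock genes had a median interaction of -0.04.

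The following genes were chosen after their values were seen, as examples of the courses among the 124. Homer1, a scaffold of the postsynaptic density with an activity-induced short form, stood at 104, 97.3 and 98.3 CPM after vehicle and 106, 109 and 89.3 CPM after stigmasterol at 1 h. Its levels were 63.6, 61.8 and 69.8 CPM after vehicle and 73.3, 54.6 and 68.2 CPM after stigmasterol at 6 h. Every 6 h library was below every 1 h library, the changes were -0.62 after vehicle and -0.63 after stigmasterol, with an interaction of -0.02 ± 0.15 (-0.34 to 0.30). Gli1, a transcription factor of hedgehog signalling, had changes of 1.42 after vehicle and 0.96 after stigmasterol, and an interaction of -0.46 ± 0.29. Lrg1, a secreted glycoprotein of endothelium and the acute phase, had 1.95 and 1.03, and Ch25h, which makes the oxysterol 25-hydroxycholesterol, had 2.50 and 1.47, with interactions of -0.92 ± 0.38 and -1.03 ± 0.49. Ch25h was low, at a mean of 0.863 CPM, with vehicle libraries of 1 h at 0.156, 0.247 and 0.396 CPM. Esyt1, a lipid transfer protein at membrane contacts, had 0.68 and 0.44, and Nifk, a nucleolar protein, -0.62 and -0.35.

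The 2 of the 124 genes with changes of opposite sign were Podn and Loxl4. Podn had a change of 0.91 after vehicle and -0.12 after stigmasterol. Loxl4, an enzyme that crosslinks collagen and elastin, also chosen after its values were seen, had 1.79 and -0.29, at a mean of 0.483 CPM. It stood at 0.218, 0.282 and 0.152 CPM after vehicle and 0.498, 0.532 and 0.546 CPM after stigmasterol at 1 h. Its levels were 0.713, 0.626 and 0.943 CPM after vehicle and 0.341, 0.584 and 0.365 CPM after stigmasterol at 6 h. Stigmasterol libraries were above all vehicle libraries at 1 h and below all of them at 6 h, and the interaction was -2.08 ± 0.43 (-3.01 to -1.16, unadjusted p 0.0003). Vwf, also among the 124, had a change of 0.78 after vehicle and 0.23 after stigmasterol.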

How the data were processed

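Hippocampal mRNA of 12 mice was sequenced, 1 library a mouse and 3 mice in each of 4 groups, so p-values concern the spread among 3 animals per group. The count values are whole numbers of reads per gene as deposited by the authors, and the submitters' processing notes name HTSeq 0.6.1p1 and STAR 2.4.2a with GRCm38, besides bcl2fastq 2.17.1.14, cutadapt, DESeq and DESeq2 1.10.1, without their order or settings. The authors also deposited a normalised signal table, in which each library's counts are divided by 1 size factor (largest relative departure 0.00984), and it was used only as an alternative with a pseudocount of 1. Per the labels' protocols, RNA had an integrity number of at least 7 and libraries were made with a TruSeq mRNA kit. Whether counting used strand is not given in the sources used here.

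The 21532 genes of the count table were reduced with filterByExpr to 18382, scaled by TMM and fitted in 1 edgeR 4.0.16 quasi-likelihood model over the 4 groups (R 4.3.3), with Benjamini-Hochberg adjustment over all tested genes and a threshold of 0.05. The interaction, the effect at each time and the time change within each treatment were contrasts of that fit. Totals of 27613253 to 42043875 counts and a common biological coefficient of variation of 0.123 set the precision. SEs came from the fold change and its F statistic. List averages used log2 CPM with a prior count of 2. Gene symbols and coordinates are those of GENCODE M21 on GRCm38, and promoter windows those of RefSeq on GRCm38.p6.

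Named genes were the 12 positive and 12 negative genes of smallest interaction p averaging at least 1 CPM with an assigned name, up to 8 genes separate in opposite directions at both times, and up to 3 members of smallest p per list, plus a set taken from earlier results, such as Jund, Fkbp5 and Bcl3. Homer1, Esyt1, Gli1, Nifk, Lrg1, Ch25h, Loxl4 and Mt1 were chosen after their values were seen. The comparison, the 36 lists and the named members were chosen with earlier results of these data known. DESeq2 1.42.0, limma 3.58.1 (voom and trend), other scaling and filters, tissue covariates, removal of GC and length trends and omission of libraries were alternatives.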

Additional observations from a re-analysis of the deposited data

How the results depend on the processing

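The interaction had 0 genes at an adjusted p under 0.05 under every alternative run, with 224 (without stigmasterol replicates 8 and 11 at 1 h) to 876 genes (GC content and length trend removed) at an unadjusted p under 0.05, or 291 to 1270 with single libraries left out. The effects at 1 h and 6 h had 0 calls except with the DESeq2 Wald test, which gave 21 and 4.

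The count of 6 h against 1 h after vehicle, 124, became 963 at an adjusted p of 0.1, 187 with upper-quartile factors, 276 with the stricter filter, 1154 with the DESeq2 Wald test, 305 with the striatum covariate, 2 with the choroid plexus and striatum covariates, 2162 with the GC trend removed and 71 without stigmasterol replicates 8 and 11 at 1 h. It was 0 with the choroid plexus covariate, with the meningeal fibroblast covariate and without vehicle replicates 4 and 9 at 1 h, and leaving out single libraries gave 0 (without vehicle replicate 5 at 1 h) to 582 (without stigmasterol replicate 22 at 6 h). The count of 6 h against 1 h after stigmasterol, 1, became 16 at an adjusted p of 0.1, 8 with upper-quartile factors, 0 with the stricter filter, 97 with DESeq2, 2 with the striatum covariate, 3 with both covariates, 7 with the GC trend removed and 2 with the meningeal covariate. Leaving out single libraries gave 0 to 5. The causes were not tested.

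Interactions near 0 changed sign. Jund had 0.18 with the choroid plexus covariate, 0.23 with both covariates, 0.018 with the GC trend removed, 0.11 without stigmasterol replicates 8 and 11 at 1 h, and -0.25 to 0.036 with single libraries left out. Ccdc85b had 0.011 and 0.15 with the first and both of these covariates and 0.0069 without those replicates. Homer1 had 0.019 with the striatum covariate and -0.11 to 0.098 with single libraries left out. Bcl3 had 0.057 without stigmasterol replicates 8 and 11, and Sphk1 had 0.15 with the meningeal covariate. With single libraries left out, Fkbp5 ran from -0.081 to 0.53 and Hbb-bs from -0.13 to 1.35. The meningeal covariate and the joint omission of stigmasterol replicates 8 and 11 were chosen after seeing the data. No paired analysis was possible because the groups share no replicate numbers. With 3 libraries a group, the lone vehicle library (without vehicle replicates 4 and 9) or stigmasterol library (without stigmasterol replicates 8 and 11) left at 1 h is assumed to vary like the other groups.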
